A study of Mus musculus with 6 samples.

Results

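The 10 RNAs described here are long noncoding RNAs that either stay in the nucleus or come from imprinted parts of the mouse genome: Malat1, Neat1, Meg3, Rian, Mirg, Miat, Kcnq1ot1, Rmst, Sox2ot and Snhg11. Their probe sets were taken by symbol alone, from a list chosen with earlier results of these data known. Every probe set (a group of short probes that reads one transcript region) whose platform annotation gave exactly 1 symbol, and that symbol was on the list, was taken. This gave 39 of the 45037 non-control probe sets, with at least 1 for each of the 10 RNAs. Expression was measured on Affymetrix MOE430 2.0 arrays in the ventral forebrain of mouse embryos at E13.5. On the samples themselves the tissue is named ventral telencephalon. The arrays analysed here were 3 of Olig2-/- embryos (replicates 2, 4 and 5) and 3 of Olig2+/+ embryos (replicates 1, 4 and 5), each carrying the pooled RNA of 3 brains. Olig2 encodes a basic helix-loop-helix transcription factor of ventral neural progenitors, and the labels do not say how the mutant allele was made. The labels do not say whether a mouse contributed to more than 1 pool, so the tests below measure the spread between these 6 arrays.

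Long noncoding RNAs carry no protein code and act, where a function is known, as RNA molecules. Malat1 sits in nuclear speckles, which store splicing factors, and Neat1 is the scaffold of paraspeckles. Miat, also called Gomafu, gathers in a separate nuclear compartment of neurons. Meg3, Rian and Mirg are expressed from the maternal chromosome in the imprinted Dlk1-Dio3 domain, where Rian hosts small nucleolar RNAs and Mirg hosts miRNAs. Kcnq1ot1 is expressed from the paternal chromosome and silences neighbouring genes in cis. Rmst and Sox2ot are tied to neural progenitors and Sox2, and Snhg11 hosts small nucleolar RNAs.

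The genomic positions, from RefSeq on GRCm38, place several of the RNAs side by side. Malat1 (chr19:5795690-5802672) ends 22.0 kb from Neat1 (chr19:5824708-5845480). Meg3 (chr12:109540996-109571729), Rian (chr12:109603945-109661716) and Mirg (chr12:109734981-109749458) lie in that order within 208.5 kb. Kcnq1ot1 (chr7:143213111-143296547) lies inside the span of the protein-coding gene Kcnq1 (chr7:143106877-143427050). The span of Sox2ot (chr3:34560381-34677993) holds the gene Sox2 (chr3:34649995-34652461). Miat lies at chr5:112213228-112228948, Rmst at chr10:92081746-92165178 and Snhg11 at chr2:158375713-158386474.

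The chromosome 12 RNAs are the hosts of small RNAs that the arrays do not read. By RefSeq coordinates the span of Mirg held 10 miRNA genes and that of Rian held 3 miRNA genes and 11 small nucleolar RNA genes, while 2 small nucleolar RNA genes lay within Snhg11. A few mature miRNAs of the + strand, taken from RefSeq on GRCm38, are shown to make plain what the host transcripts carry. Bases 2 to 8, the seed that pairs with targets, are in capitals.
mmu-miR-770-5p, in Meg3: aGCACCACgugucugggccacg
mmu-miR-370-3p, in Rian: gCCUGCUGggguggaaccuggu
mmu-miR-154-3p, in Mirg: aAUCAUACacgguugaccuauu
mmu-miR-369-3p, in Mirg: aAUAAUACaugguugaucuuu
mmu-miR-410-3p, in Mirg: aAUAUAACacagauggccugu
mmu-miR-453, in Mirg: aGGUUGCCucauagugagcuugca
mmu-miR-496a-5p, in Mirg: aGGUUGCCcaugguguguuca
The last pair shares a seed, and in the RefSeq table no other mouse mature miRNA has it. mmu-miR-410-3p lies at chr12:109743764-109743784. Levels of these miRNAs were not analysed here.

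The labels were first set against the targeted gene. Olig2 read 7.48, 7.53 and 7.76 in Olig2-/- forebrain, against 8.20, 8.22 and 8.42 in Olig2+/+ forebrain (log2 expression). Its neighbour and relative Olig1 read 8.47, 8.55 and 8.02 in the knockout and 7.17, 6.48 and 6.30 in the wild type. Neither overlapped between genotypes, and both had an adjusted p of 0.511 in limma. The position of the Olig2 probes relative to the mutation was not analysed here. Of 16 markers of the ventral telencephalon, 13 were measured, among them Lhx8, which marks cholinergic precursors, at 9.91 to 10.25 over the 6 arrays. Nkx2-1, which defines the medial ganglionic eminence, was too dim to pass the filter below. Thalamic markers were the list that differed most by genotype: 7 of 8 were lower in the knockout at an unadjusted p under 0.05, 6 of them without overlap, and none passed the adjusted threshold. Their mean was 6.77, 7.13 and 7.25 in the knockout and 7.83, 7.88 and 7.53 in the wild type, and among them Gbx2 differed by -1.38 and Rora by -1.29. The part of this difference in tissue makeup in the values below was not tested. The mean of 18 markers of postmitotic neurons was 10.17, 10.15 and 10.17 in the knockout and 10.43, 10.24 and 10.18 in the wild type. Every knockout mean lay below every wild-type mean. The exact permutation p was 0.1, the smallest that 3 against 3 arrays can give. Of the 18, 15 were lower and 3 higher in the knockout, with 3 lower and 1 higher without overlap. None passed the adjusted threshold, and the part of this in the values below was not tested. A single array stood apart in another list. The mean of the 4 measured meningeal and mesenchymal markers was 7.38 on knockout replicate 2, against 5.07 to 5.70 on the other 5 arrays, while 8 of the 12 markers listed were too dim. That high mean rested on 2 of the 4 genes, Col3a1 and Postn.

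No difference between the genotypes passed the test for any of the 9 RNAs that could be tested, and Neat1 was too dim to test. A probe set was kept for testing if it lay above its array's median on at least 3 of the 6 arrays, and 32 of the 39 passed, as did 22565 of all probe sets. By limma with Benjamini-Hochberg adjustment over those 22565, none of the 32 passed an adjusted p of 0.05, and the call rate over all kept probe sets was 0.0%. At an unadjusted p under 0.05 the count was 0 of 32 in limma and 0 of 32 with a trended, robust variance, where 9.4% of all kept probe sets were below that level in limma. The genotypes did not overlap for 1 of 32 probe sets, lower in the knockout, against 16.2% of all kept probe sets in either direction and 7.25% lower. The mean was higher in the knockout for 13 of the 32 and lower for 19, where 50.7% of all kept probe sets had a higher mean. Over the 9 RNAs with a kept probe set, taken at the brightest one, the median log2 difference was -0.04, against -0.002 over the 10630 genes measured. In bulk tissue, fewer cells of a type and less RNA per cell cannot be told apart.

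**Figure D1:**
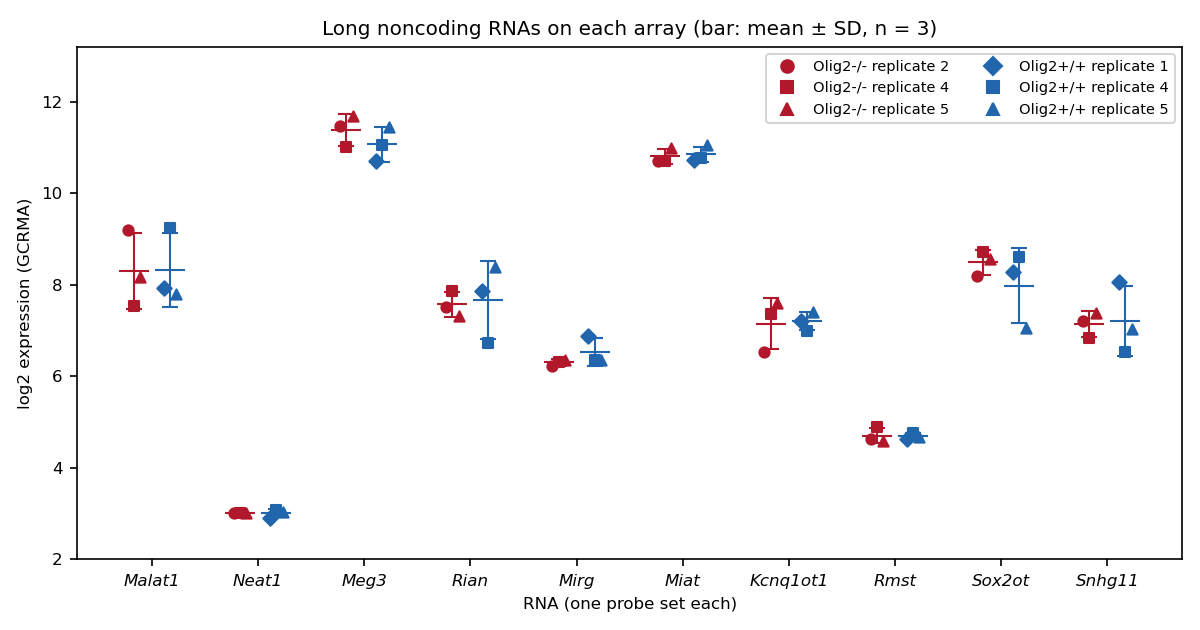
Log2 expression of each RNA at its main probe set on the 3 Olig2-/- arrays (red, left) and the 3 Olig2+/+ arrays (blue, right). Horizontal bars are means and whiskers the SD of 3 arrays. The genotypes overlap for all 10 RNAs. Malat1 splits within each genotype, with knockout replicate 2 at 9.19 and wild-type replicate 4 at 9.25. Levels of different RNAs cannot be set against each other, since each is read by its own probes.

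Malat1, the speckle RNA, differed far more between arrays of one genotype than between genotypes. At its main probe set, 1418189_s_at, it read 9.19, 7.53 and 8.17 in Olig2-/- forebrain, against 7.92, 9.25 and 7.79 in Olig2+/+ forebrain. Knockout replicate 2 and wild-type replicate 4 were high, and the other 4 arrays lay within 7.53 to 8.17. Knockout arrays averaged 8.30 ± 0.84 and wild-type arrays 8.32 ± 0.81 (SD, n = 3 each), a log2 difference of -0.02 with a 95% interval of -1.40 to 1.36 (limma's adjusted p = 0.994). The interval reaches past a log2 difference of 1 in either direction, so equality of the genotypes was not shown.

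All 7 probe sets of Malat1 were kept, and their genotype differences ran from -0.41 to 0.31. On 5 of the 7, knockout replicate 2 and wild-type replicate 4 were the 2 highest arrays, an order found on 8.0% of all kept probe sets. The 5 were 1418189_s_at, 1418188_a_at, 1438403_s_at, 1427285_s_at and 1452378_at. Their pairwise Pearson r over the 6 arrays ran from 0.60 to 1.0, a description in which every point of a pair comes from the same RNA pool. These 5 were singled out after their values were seen. They are not 5 separate sources: 1418189_s_at and 1418188_a_at were designed from one source sequence (r = 0.98). So were 1427285_s_at and 1452378_at, from another (r = 0.60). Across probe sets, knockout replicate 2 and wild-type replicate 4 were the most alike of any 2 arrays (r = 0.9975). Knockout replicates 4 and 5 came next (0.9973). The part of that likeness in the Malat1 values was not tested.

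The remaining Malat1 probe sets had other orders of the arrays. Probe set 1429060_at was nearly flat, at 7.29, 7.17 and 7.57 in the knockout and 7.30, 7.28 and 7.35 in the wild type, with a log2 difference of 0.03 (95% interval -0.25 to 0.32). Probe set 1436202_at read 6.24, 6.51 and 6.35 in the knockout and 5.54, 6.98 and 6.68 in the wild type, so that wild-type replicate 1 was lowest there. Their r with the rest ran from -0.06 to 0.55. Which stretch of Malat1 each probe set reads was not analysed here. IDs ending in _s_at mark probes shared by several transcripts, and those ending in _a_at mark probes shared by transcripts of one gene.

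Some control values were high on the same arrays as Malat1, and others of the same kind were not. The 5' control probe set of 18S ribosomal RNA read 8.28, 5.86 and 4.88 in the knockout and 4.75, 7.27 and 5.04 in the wild type, so the same 2 arrays were highest. The 3' probe set of 18S, at 7.14, 6.48 and 6.07 in the knockout and 5.01, 5.94 and 5.76 in the wild type, was highest on knockout replicates 2, 4 and 5. The middle probe set likewise had knockout replicates 2 and 4 highest, at 7.29 and 6.67, and replicate 4 was the lowest array of Malat1 at its main probe set. Ttr, the transthyretin gene that defines choroid plexus, read 9.99, 6.42 and 4.85 in the knockout and 8.36, 10.96 and 3.46 in the wild type. The choroid plexus list had 2 of 6 genes measured, and the other one, Otx2, had another order. Otx2, a transcription factor gene, read 8.21, 8.47 and 8.10 in the knockout and 8.01, 7.91 and 8.34 in the wild type, with wild-type replicate 4 lowest. The defining markers Folr1, Kl, Aqp1 and Lmx1a were too dim to pass the filter. The part of these in the Malat1 values was not tested.

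Neat1, whose longer isoform builds paraspeckles, was near the lower end of the scale and was not tested. Its brighter probe set, 1428083_at, read 3.00 on all 3 knockout arrays and 2.89, 3.07 and 3.04 in the wild type, below the array medians of 3.14 to 3.19. The other, 1442881_at, was at the floor of 2.27 on every array. At this signal a difference in Neat1 was not detectable, and its absence was not shown.

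Miat, an RNA of early neurons that binds splicing factors, was steady across the arrays. At 1455325_at it read 10.71, 10.71 and 10.99 in Olig2-/- forebrain, against 10.73, 10.78 and 11.05 in Olig2+/+ forebrain. The ranges overlap, and the log2 difference was -0.05 (SE 0.13, 95% interval -0.36 to 0.27, limma's adjusted p = 0.886). The dimmer probe set, 1458903_at, read 4.77, 4.82 and 5.59 in the knockout and 4.70, 4.67 and 4.77 in the wild type. There a single array, knockout replicate 5, made most of the difference of 0.35 (SE 0.23), and knockout replicate 2 equalled wild-type replicate 5 to 2 decimals.

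Meg3, the maternally expressed RNA at the start of the chromosome 12 cluster, had 11 kept probe sets that did not move together. At the main one, 1439380_x_at, it read 11.47, 11.01 and 11.69 in Olig2-/- forebrain, against 10.70, 11.06 and 11.45 in Olig2+/+ forebrain. The groups overlapped, and the knockout mean exceeded the wild-type mean by 0.32 (log2, SE 0.25, 95% interval -0.30 to 0.94, limma's adjusted p = 0.604). That probe set carries the suffix for probes that may bind other transcripts. At 1452183_a_at, the brightest without such a suffix or _s_at, the difference was -0.15 (SE 0.24). Over the 11 probe sets, 4 had a higher and 7 a lower mean in the knockout, from -0.96 to 0.32.

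Several wide swings of Meg3 had their low point on knockout replicate 4. Probe set 1452905_at read 10.34, 7.91 and 10.08 in the knockout and 9.42, 9.13 and 10.75 in the wild type, a range of 7.17-fold over the 6 arrays. Probe set 1428764_at read 8.78, 6.68 and 7.65 in the knockout and 8.81, 8.40 and 8.79 in the wild type. Probe set 1452906_at read 9.04, 7.18 and 7.89 in the knockout and 7.92, 8.14 and 8.29 in the wild type. In all of these, and at 1428765_at, knockout replicate 4 was the lowest array. None separated the genotypes.

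Other Meg3 probe sets had other low arrays. Probe set 1429257_at read 7.59, 7.13 and 6.89 in the knockout and 8.65, 8.34 and 6.62 in the wild type, with wild-type replicate 5 lowest. The same array was lowest at 1436713_s_at, which read 10.91, 11.38 and 11.45 in the knockout and 11.49, 11.38 and 10.53 in the wild type. Over the 55 pairs of Meg3 probe sets, r across the 6 arrays ran from -0.75 to 0.92. The 5 pairs designed from one source sequence had r from 0.51 to 0.92, and the 50 pairs from different or unnamed sequences had a median of 0.18. These are descriptions over 6 arrays that share extracts.

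**Figure D2:**
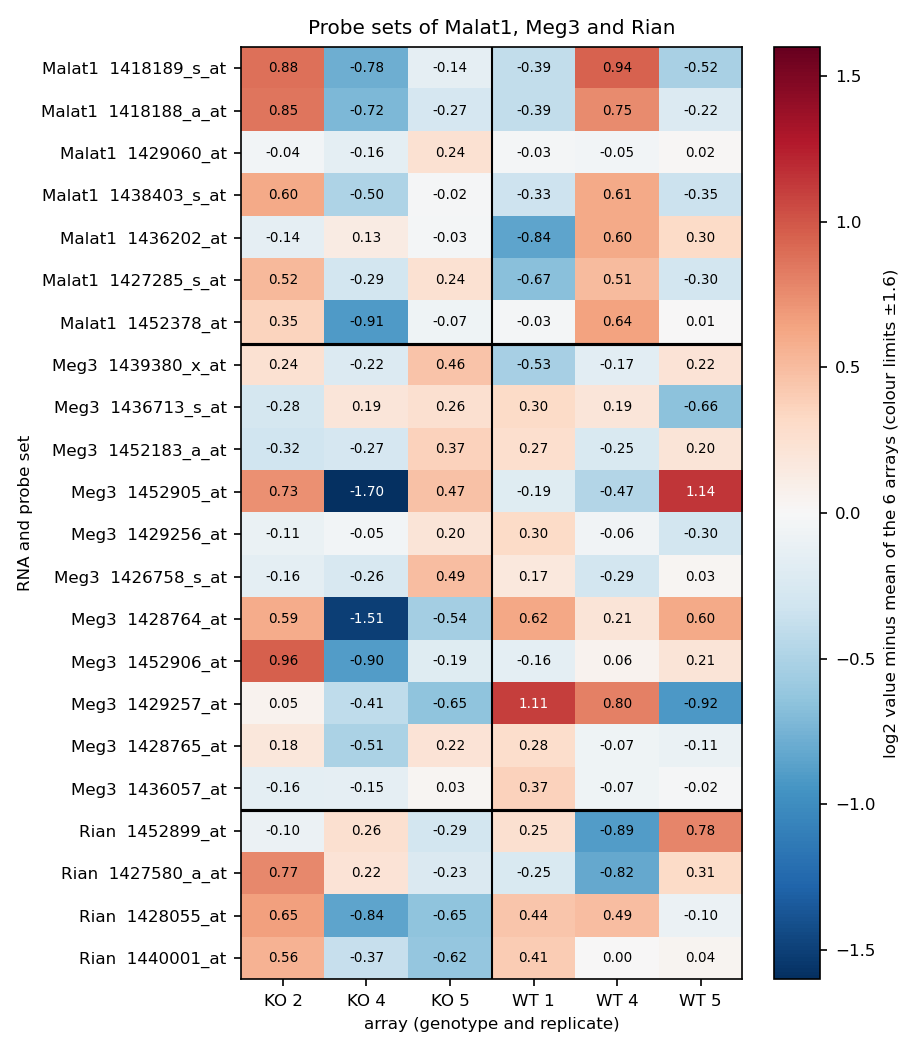
Log2 value of each kept probe set of Malat1, Meg3 and Rian on each array, minus the probe set's mean over the 6 arrays. Columns are arrays, with Olig2-/- (KO) left of Olig2+/+ (WT). Most Malat1 rows are high on KO 2 and WT 4. Several Meg3 rows are low on KO 4, and rows of one RNA differ in which array is high.

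Rian, the host of small nucleolar RNAs downstream of Meg3, also read differently by probe set. At its main probe set, 1452899_at, it was 7.51, 7.87 and 7.32 in Olig2-/- forebrain, against 7.86, 6.72 and 8.39 in Olig2+/+ forebrain, and the knockout lay inside the wild-type range. The log2 difference was -0.09 (SE 0.43, limma's adjusted p = 0.942). At 1427580_a_at the knockout read 7.47, 6.92 and 6.47 and the wild type 6.45, 5.88 and 7.01, a difference of 0.50 (SE 0.37). At both, wild-type replicate 4 was the lowest array.

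The remaining 2 Rian probe sets were low on knockout replicates 4 and 5. Probe set 1428055_at read 7.06, 5.57 and 5.76 in the knockout and 6.85, 6.90 and 6.31 in the wild type. Probe set 1440001_at read 4.86, 3.93 and 3.68 in the knockout and 4.71, 4.30 and 4.34 in the wild type. On both, knockout replicates 4 and 5 lay below every wild-type array and knockout replicate 2 lay above every wild-type array. Together with Meg3 at 1452906_at, 3 of the 32 kept probe sets had that order, against 1.83% of all kept probe sets, an order picked out after the values were seen.

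Knockout replicate 2 moved the values at these places. Without it, the count of the 32 probe sets at an unadjusted p under 0.05 was 3 instead of 0, all lower in the knockout. That is 9.38% of the 32, against 10.6% of all kept probe sets in the same fit, so the count was near the background. Meg3 at 1428764_at then differed by -1.50 (limma's adjusted p = 0.244), Rian at 1428055_at by -1.02 (0.233) and Rian at 1440001_at by -0.65 (0.309). None passed the adjusted threshold. The meningeal markers Col3a1 and Postn, a collagen and a matrix protein of mesenchyme, read 8.10 and 7.93 on that array. On the other knockout arrays Col3a1 read 4.04 and 4.09 and Postn 3.56 and 3.36. In the wild type Col3a1 read 6.20, 4.35 and 4.67 and Postn 3.86, 3.56 and 3.51. The other measured markers of that list, named after their values were seen, did not single out that array: Foxd1 read 6.15, 6.15 and 6.39 in the knockout and 5.81, 5.64 and 6.52 in the wild type. Pdgfrb read 7.33, 7.19 and 7.30 in the knockout and 6.92, 6.73 and 6.93 in the wild type. The part of these markers in the Meg3 and Rian values was not tested.

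Mirg, the miRNA host at the far end of the cluster, showed small differences of opposite sign. At 1440097_at it read 6.22, 6.31 and 6.36 in the knockout and 6.87, 6.36 and 6.36 in the wild type, and the log2 difference was -0.23 (SE 0.16, limma's adjusted p = 0.562). Wild-type replicate 1 was high, and without it the difference was -0.06. The second, 1457030_at, read 5.89, 6.23 and 6.06 in the knockout and 5.91, 5.82 and 6.08 in the wild type, a difference of 0.12 (SE 0.12). The 3 RNAs of the cluster did not vary alike at their main probe sets: r over the 6 arrays was -0.03 for Meg3 and Rian, -0.70 for Meg3 and Mirg and 0.20 for Rian and Mirg.

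Among the other genes of the Dlk1-Dio3 region, 5 were measured, of which Olig2-/- forebrain was higher for 1 and lower for 4, none past the threshold (median difference -0.15). Dlk1, the paternally expressed Notch-family ligand gene of the domain, read 8.69, 9.39 and 8.98 in the knockout and 9.23, 8.75 and 9.13 in the wild type, with overlapping groups. Dync1h1, the dynein heavy chain gene beyond the domain, differed by -0.27 (SE 0.08), Wars, a tryptophan tRNA synthetase gene, by -0.20 (SE 0.09) and Yy1, a zinc finger factor gene, by -0.15 (SE 0.07). In each of these the knockout arrays lay below the wild-type arrays, and limma's adjusted p ran from 0.511 to 0.513. Over all 10630 genes, 8.45% were higher and 7.96% lower in the knockout without overlap. Probe sets of Wars and Yy1 disagreed in sign, with differences from -0.23 to 0.22 over 3 for Wars and from -0.15 to 0.21 over 4 for Yy1. The 2 of Dync1h1 were both lower, at -0.72 and -0.27. Rtl1 and Dio3 were not analysed here.

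Kcnq1ot1, the paternally expressed silencing RNA of the Kcnq1 domain, held the single probe set without overlap. Of its 6 probe sets 3 were kept, and the 3 others lay between 2.27 and 2.87. Probe set 1458161_at read 6.72, 6.84 and 6.67 in Olig2-/- forebrain, against 6.84, 6.85 and 7.02 in Olig2+/+ forebrain. The knockout arrays were all lower, by a margin that vanishes at 2 decimals for the closest pair. The log2 difference was -0.16 (SE 0.09, 95% interval -0.37 to 0.05, limma's adjusted p = 0.519).

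The other kept Kcnq1ot1 probe sets overlapped between the genotypes. At the main one, 1457781_at, the values were 6.52, 7.35 and 7.59 in the knockout and 7.21, 6.99 and 7.40 in the wild type, with knockout replicate 2 lowest (log2 difference -0.04, SE 0.29). At 1442029_at they were 4.83, 4.77 and 4.77 in the knockout and 4.86, 4.64 and 4.77 in the wild type (log2 difference 0.03, SE 0.08). Kcnq1 itself was at 2.34 on every array, near the floor. Of 6 measured genes of the domain, 3 were higher and 3 lower, and none passed. Cdkn1c, the imprinted inhibitor of cell division that Kcnq1ot1 is known to silence in cis, differed by -0.21 (SE 0.14), Cd81 by 0.17 (SE 0.10), Tssc4 by 0.14 (SE 0.07) and Nap1l4 by 0.06 (SE 0.08).

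Sox2ot, the RNA whose span holds Sox2, had the largest difference at a main probe set, and it rested on 1 array. Its only probe set, 1460587_at, read 8.20, 8.72 and 8.57 in Olig2-/- forebrain, against 8.27, 8.61 and 7.05 in Olig2+/+ forebrain. Wild-type replicate 5 was low and the other 5 arrays lay close together. The log2 difference was 0.52, a 1.43-fold higher level (SE 0.42, 95% interval -0.51 to 1.55, limma's adjusted p = 0.61). Without wild-type replicate 5 it was 0.05. Sox2, a progenitor transcription factor gene, read 12.62, 12.48 and 12.69 in the knockout and 12.62, 12.64 and 12.58 in the wild type, so the low array of Sox2ot was not low for Sox2.

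Rmst, which is known to bind the Sox2 protein during neurogenesis, was dim and steady. At 1440495_at it read 4.63, 4.89 and 4.58 in the knockout and 4.63, 4.76 and 4.68 in the wild type, a log2 difference of 0.01 (SE 0.10, 95% interval -0.25 to 0.27). Its second probe set, 1438822_at, lay between 2.27 and 2.41 and was not tested. Nedd1, the nearest listed protein-coding gene on chromosome 10, differed by 0.03 (SE 0.09) at its brighter probe set. Of the 6 measured genes listed with Sox2 and Nedd1, 4 were higher and 2 lower, and none passed. Atp11b, a phospholipid flippase gene, differed by 0.19 (SE 0.09) and Sox3 by 0.18 (SE 0.17).

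Snhg11, a neuronal host of small nucleolar RNAs, spread most within the wild type. At 1434292_at it read 7.20, 6.84 and 7.39 in Olig2-/- forebrain, against 8.06, 6.54 and 7.04 in Olig2+/+ forebrain. The knockout lay inside the wild-type range (log2 difference -0.07, SE 0.40, 95% interval -1.05 to 0.91, limma's adjusted p = 0.951). Without wild-type replicate 1 the difference was 0.35. The mean of the neuronal markers was also highest on that array. Most of the single markers were highest there too, among them Ina, Mapt and Syn1. Of the rest, Tubb3, Dcx and Rbfox3 were highest on wild-type replicate 4 and Map2 on wild-type replicate 5. Syt4 was highest on knockout replicate 5 and Nsg2 on knockout replicate 2. These genes were named after their values were seen. The part of neuronal content in the Snhg11 values was not tested. The second probe set, 1437311_at, was at the floor on every array.

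**Figure D3:**
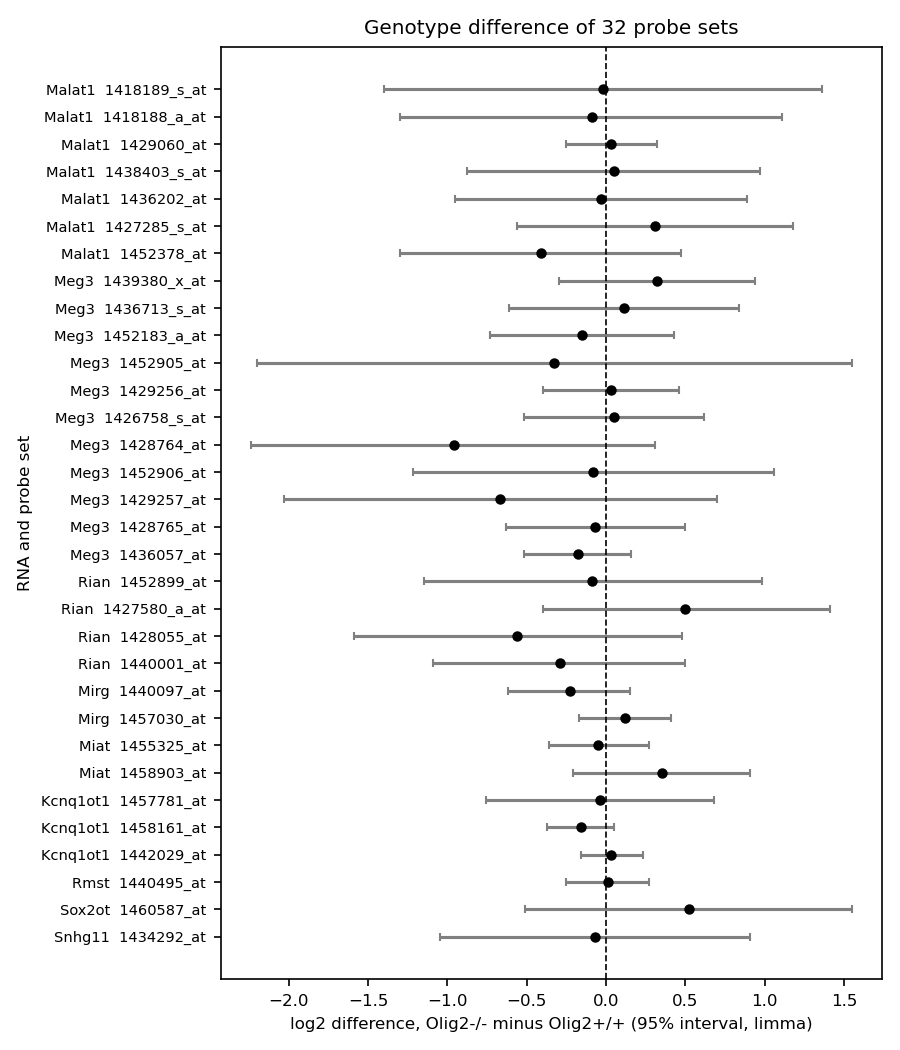
Log2 difference (Olig2-/- minus Olig2+/+) of the 32 kept probe sets with limma's 95% intervals, by RNA and probe set. Every interval includes 0. The widest belong to Meg3 and Malat1, and the narrowest to Kcnq1ot1 at 1442029_at (-0.16 to 0.23).

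Other long noncoding RNAs on the array gave a comparison for the 10. Of 14 measured hosts of small nucleolar RNAs other than Snhg11, 10 were higher and 4 lower in the knockout, with none past the threshold and a median of 0.04. Snhg5 differed by 0.34 (SE 0.11), Snhg3 by 0.20 (SE 0.07), Snhg4 by -0.22 (SE 0.11) and Snhg10 by 0.14 (SE 0.07). The 3 kept probe sets of Snhg10 ran from -0.04 to 0.14. Snhg5, at 8.55, 8.56 and 8.80 in the knockout and 8.15, 8.37 and 8.39 in the wild type, showed no overlap, while Snhg11 overlapped. Of the 14, 5 were higher without overlap, Snhg3 and Snhg10 among them, and Snhg4 was the 1 lower. Over all genes, 8.45% were higher and 7.96% lower without overlap. The list mean was 7.28, 7.29 and 7.34 in the knockout and 7.23, 7.26 and 7.27 in the wild type (exact permutation p = 0.1).

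Of 12 further long noncoding RNAs, 6 were higher and 6 lower, with none past the threshold and a median of 0.00. Dlx1as, the antisense partner of Dlx1, differed by 0.44 (SE 0.13), Dlx6os1, which runs across the Dlx5 and Dlx6 locus, by 0.40 (SE 0.13) and Ftx, of the X inactivation centre, by 0.34 (SE 0.11). In these 3 of the 12 the genotypes did not overlap, with limma's adjusted p at 0.511. Over all genes, 8.45% were higher and 7.96% lower in the knockout without overlap. Whether the array separates antisense partners was not tested. Xist, the nuclear RNA of the inactive X chromosome, named here after its values were seen, read 8.37, 10.21 and 9.41 in the knockout and 10.23, 8.66 and 8.97 in the wild type. The labels do not give the sexes pooled on each array.

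Genes for proteins of the nuclear bodies had medians near that of all genes. Of 13 measured paraspeckle proteins, 9 were higher and 4 lower (median 0.04), and of 20 speckle and splicing proteins 13 were higher and 7 lower (median 0.05), with none past the threshold. Taf15, an RNA-binding protein gene, differed by 0.46 (SE 0.19), Cpsf7, of 3' end processing, by -0.31 (SE 0.15), and Sfpq, an essential paraspeckle protein gene, by 0.21 (SE 0.11). Celf3, a neuronal splicing factor known to bind Miat, differed by -0.46 (SE 0.13, limma's adjusted p = 0.511) and Clk4, a kinase of splicing factors, by 0.44 (SE 0.17). Among 10 chromatin and RNA-binding partners, 6 were higher and 4 lower (median 0.06), with Suz12 of the Polycomb complex at 0.34 (SE 0.16) and Jarid2 at -0.21 (SE 0.09). Kept probe sets disagreed in sign for Sfpq (-0.57 to 1.1 over 6), Suz12 (-0.09 to 0.64 over 6) and Jarid2 (-0.21 to 0.29 over 3). Those of Cpsf7 and Clk4 agreed in sign, and the 2 of Taf15 ran from -0.0 to 0.46. The speckle and splicing list averaged 10.33, 10.10 and 10.20 in the knockout and 10.17, 10.31 and 10.21 in the wild type. Its 2 highest arrays were knockout replicate 2 and wild-type replicate 4, as for most Malat1 probe sets. Srrm2, named after its values were seen, had the same 2 highest (difference -1.40, SE 0.77). Its 3 kept probe sets ran from -1.4 to 0.25. Clk4 and Celf3 had other orders. The part of these in the Malat1 values was not tested.

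Imprinted genes elsewhere in the genome differed in both directions. Of 26 measured imprinted genes outside both domains, 14 were higher and 12 lower, with a median of 0.02 and none past the threshold. Gatm, a gene of creatine synthesis, differed by 0.56 (SE 0.14), Ndn, a neuronal growth suppressor gene, by 0.16 (SE 0.07), Ddc by 0.22 (SE 0.09) and Ube3a, a ubiquitin ligase gene, by -0.19 (SE 0.10). Kept probe sets disagreed in sign for Ube3a (-0.19 to 0.83 over 6) and Ndn (-0.08 to 0.16 over 5), while Gatm and Ddc had 1 each. The groups of Gatm, Ndn and Ddc did not overlap, all higher in the knockout. Neither did those of Gnas, a G protein gene named after its values were seen, which differed by -0.36 (SE 0.20). Of the 26, 3 were thus higher and 1 lower without overlap. Over all genes the shares were 8.45% higher and 7.96% lower, so the count was near the background.

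What set several of the 10 RNAs apart in these data was their spread between arrays of one genotype. The pooled SD within genotype had a median of 0.45 over the 32 probe sets and of 0.16 over all 22565 kept probe sets (log2). Of the 32, 18 lay above 0.366, the level that 10% of all kept probe sets exceed. They were 6 of 7 for Malat1, 5 of 11 for Meg3, all 4 for Rian and 1 each for Kcnq1ot1, Sox2ot and Snhg11, while none of Mirg, Miat or Rmst was among them. The size of the contrast varied with brightness. Between log2 levels of 8 and 9 the median was 0.68 for 5 member probe sets and 0.13 for all 2424, and between 4 and 5 it was 0.33 for 5 members and 0.20 for all 3274. These are descriptions, since probe sets of one RNA are not independent. The genotype differences had a median size of 0.12 over the 32 and of 0.13 over all kept probe sets. Differences over 0.5 in size were held by 5 of the 32, or 15.6%, against 6.78% of all kept probe sets.

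**Figure D4:**
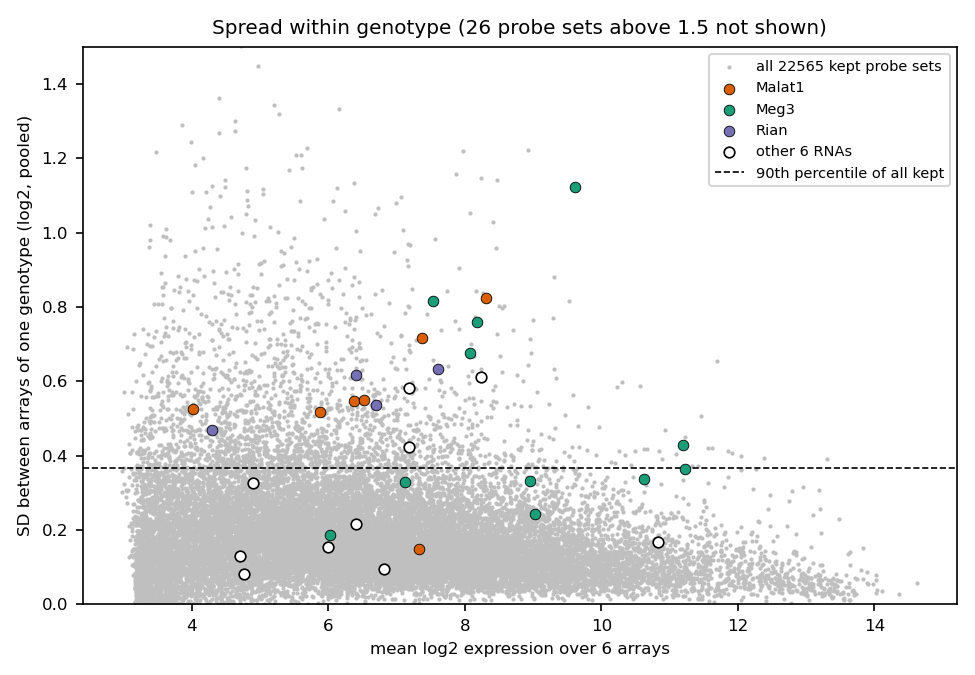
Pooled SD between arrays of one genotype (log2) against mean log2 expression over the 6 arrays. Grey points are all 22565 kept probe sets, of which 26 lie above the axis limit of 1.5. Coloured points are Malat1, Meg3 and Rian, open points the other 6 tested RNAs, and the dashed line is the 90th percentile. Of 22 probe sets of Malat1, Meg3 and Rian, 15 lie above the line.

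The highest and lowest arrays differed from probe set to probe set. Over the 32 probe sets, the highest array was wild-type replicate 1 for 9, knockout replicates 2 and 5 for 6 each, wild-type replicates 4 and 5 for 4 each and knockout replicate 4 for 3. The lowest was knockout replicate 4 for 10 and wild-type replicate 4 for 7. The likeness of genes to these RNAs was read as r over the 6 arrays among 10630 genes, as a description. Closest to Malat1 were Tle1, a Groucho corepressor gene, and Rbfox2, a splicing factor gene, each at 0.995. Such an r was not particular to Malat1. The closest gene of every tested RNA lay between 0.987 (Miat with Aars2) and 0.998 (Mirg with Cmtm4). With the other member RNAs, r of Malat1 ran from -0.77 for Kcnq1ot1 and -0.76 for Rian to 0.22 for Sox2ot.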

How the data were processed

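The authors deposited log2 expression values per probe set. Per the series design text, images went through GCOS and MAS 5.0 and GCRMA then quantile-normalized, summarised and log2-transformed the signals, from 6 ug of total RNA per array per the labels' protocols; the submitters' processing notes list these programs without a version. GCRMA leaves a floor (2.27), within 0.03 of which lie 33.2% to 33.7% of values per array, and compresses differences near it. Quantile normalization hides a change in total RNA. The design states 5 replicates per genotype, and 3 were analysed here.

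Symbols came from the platform annotation (34945 probe sets with 1 symbol, 932 with several, 9160 unnamed here), of which 34741 matched RefSeq on GRCm38 by gene ID. Kept probe sets were compared with limma 3.58.1 in R 4.3.3 (lmFit, eBayes, two-sided), tested on simulated data. A gene's main probe set was its brightest kept one. The rule for named genes took all 10 RNAs, Olig2 and Olig1, up to 4 genes of lowest p per related list, genes adjoining a member, up to 2 genes per marker list and up to 2 genes of highest r with a member. Alternatives were other filters, scalings, variance models, array weights, a replicate block, arrays left out and other choices of probe set. Members, lists and tests were chosen with earlier results of these data known. The number of arrays limits the precision of each value.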

Additional observations from a re-analysis of the deposited data

How the results depend on the processing

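No probe set passed the adjusted threshold under any of the 15 alternatives that refit limma, where the smallest adjusted p at a main probe set of the 10 RNAs was 0.329. The median difference over the RNAs stayed between -0.083 and 0.051. The count of the 32 at an unadjusted p under 0.05 was 1 with array weights (3.12%, against 15.5% of all kept probe sets). It was 3 without knockout replicate 2 and wild-type replicate 4 together (9.38%, against 14.5%). With single arrays left out it was 0 to 3. It was 3 without knockout replicate 2 (9.38%, against 10.6%). Without wild-type replicate 1 it was 1 (Malat1 at 1436202_at, -0.46), or 3.12% against 6.21%. Without wild-type replicate 5 it was 1 (Meg3 at 1429257_at, -1.29), or 3.12% against 6.76%. Each of these shares lay below that of all kept probe sets in the same fit. Over all kept probe sets the count was 2121 in the main fit and 3491 with array weights. It was 3276 without those 2 arrays together, and 1121 to 3490 with single arrays left out. The moves came without knockout replicate 5 (1121), knockout replicate 4 (1205), wild-type replicate 1 (1402) and wild-type replicate 4 (3490). The labels reuse replicate numbers 4 and 5 across genotypes without saying that they pair samples, so no pairing was assumed. Deviations from the genotype mean had r of -0.292 and 0.32 for same-numbered arrays. With 3 arrays per genotype these cannot settle pairing. The highest r, 0.379, was for knockout replicate 2 and wild-type replicate 4. In a fit with a replicate block, wild-type replicate 1 and knockout replicate 2 were each alone under their number. The genotype difference in that fit therefore rested only on the arrays numbered 4 and 5. With the replicate block the count of the 32 was 7 (21.9%, 6 lower and 1 higher in the knockout). Over all kept probe sets it was 2014 (8.93%) with the block, with none past the adjusted threshold. Signs of uncalled differences turned in 27 of 162 cases. With array weights Malat1 was at 0.04 and Snhg11 at 0.13. With the replicate block Rian was at 0.04, Kcnq1ot1 at 0.28 and Snhg11 at 0.33. Without the 2 arrays Kcnq1ot1 was at 0.17. The mean of kept probe sets gave -0.17 for Meg3 and 0.15 for Miat, the brightest without shared-probe suffixes -0.15 for Meg3, and the median of all probe sets -0.081 for Meg3, 0.15 for Miat, 0.005 for Kcnq1ot1 and -0.019 for Rmst. With single arrays left out, Malat1 ran from -0.47 to 0.45, Meg3 from 0.13 to 0.51, Rian from -0.56 to 0.28, Miat from -0.14 to 0.05, Kcnq1ot1 from -0.26 to 0.27, Rmst from -0.09 to 0.07, Sox2ot from 0.05 to 0.84 and Snhg11 from -0.41 to 0.35. Other moves that kept the sign included Malat1 at -0.67 with the replicate block, and Sox2ot at 1.01 with array weights, 0.99 without the 2 arrays and 0.81 with the block, and Rian at -0.53 without the 2 arrays. Mirg and Sox2ot kept their sign throughout. The causes were not tested.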
